A study of Mus musculus with 6 samples.

Results

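The smooth muscle and myofibroblast contractile genes were taken as 10 named genes: Acta2, Actg2, Myh11, Tagln, Cnn1, Des, Lmod1, Smtn, Synpo2 and Myocd. They were chosen by gene symbol out of 41253 symbols in the deposited tables, and all 10 were among the 17663 genes that passed the filter on low counts. The tissue was labelled oesophageal squamous cell carcinoma of C57BL/6 mice, induced with the DNA-damaging carcinogen 4NQO, which was in their drinking water for 16 weeks from an age of 6 weeks. RNA of 6 tumours was sequenced: 3 libraries labelled Ptpro-KO (genotype Ptpro-/-, lacking Ptpro, which encodes a receptor-type tyrosine phosphatase) and 3 labelled WT (wild type), with mice of both labels given the carcinogen. The design text gives an age of 34 weeks, which a label tag (week 6) does not match, and mice that lost much weight were killed before the 12 weeks of follow-up ended. The sources used here do not give how the Ptpro allele was made.

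Smooth muscle contracts when myosin built on the heavy chain Myh11 pulls on filaments of the smooth muscle actins Acta2 and Actg2. Calponin (Cnn1), transgelin (Tagln), leiomodin (Lmod1), smoothelin (Smtn) and synaptopodin 2 (Synpo2) bind or shape those filaments, desmin (Des) is the intermediate filament of muscle cells, and myocardin (Myocd) is the co-activator that switches the programme on together with the serum response factor SRF. In the adult mouse oesophagus the outer muscle coat is mainly striated, and smooth muscle lies in the muscularis mucosae and in vessel walls. Fibroblasts of wounds and tumours can take up a portion of the programme, typically Acta2 and Tagln, and are then called myofibroblasts.

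Tumours labelled Ptpro-KO gave 35551442 to 39827467 reads on annotated transcripts, and those labelled WT 25745240 to 37595506. Ptpro itself ran against the labels, at 30.3, 42.8 and 50.6 CPM (reads scaled to library size) in tumours labelled Ptpro-KO, against 5.05, 0.359 and 2.38 CPM in those labelled WT, so the groups are called here by their labels and every direction below is between labels. Squamous epithelium markers were read in all 6 libraries, with a sum over 8 genes of 18266 to 24978 CPM in tumours labelled Ptpro-KO and 56952 to 66599 CPM in those labelled WT. Muscle content differed widely within each label. Over 19 striated muscle markers the summed level was 45387, 17875 and 237 CPM in tumours labelled Ptpro-KO, against 45543, 85.1 and 29301 CPM in those labelled WT. Replicate 3 labelled Ptpro-KO also held stomach transcripts, 16833 CPM summed over 7 markers, where the other 5 libraries had 0.214 to 29.9 CPM.

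No difference between the labels passed the test for these genes, and tumours of the same label differed widely in most of them. Of the 10 genes, 0 passed as higher and 0 as lower in tumours labelled Ptpro-KO by edgeR's quasi-likelihood test at an adjusted p under 0.05, and 0 had an unadjusted p under 0.05. DESeq2 also called 0, and 1 gene (Tagln) had an unadjusted p under 0.05 there. Of 28479 genes with a p-value from DESeq2, it called 1747 higher and 1425 lower. An unadjusted DESeq2 p under 0.05 was found for 2905 higher and 2346 lower genes. Over all genes tested, edgeR called 1.81% higher, 2.29% lower and 4.1% in either direction, and 25% had an unadjusted p under 0.05. The groups overlapped for all 10 genes, whereas they did not overlap for 32.5% of all genes tested. The log2 fold change, libraries labelled Ptpro-KO over those labelled WT, was positive for 9 genes and negative for Smtn, with a median of 1.21 against 0.03 over all genes tested. As whole tumours were sequenced, fewer cells of a type and less RNA per cell cannot be told apart.

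The replicates numbered 2 stood apart in both labels. In 8 of the 10 genes they were the 2 lowest of the 6 libraries, the exceptions being Des and Smtn, and in 8 of the 10 replicate 1 labelled Ptpro-KO was the highest. The standard deviation of log2 CPM within labels had a median of 2.25 over the 10 genes against 0.278 over all genes tested. For 8 of the 10 genes, with Acta2 and Smtn as the exceptions, it lay in the top 5% of all genes tested. The labels do not link same-numbered tumours across the genotypes.

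**Figure D1:**
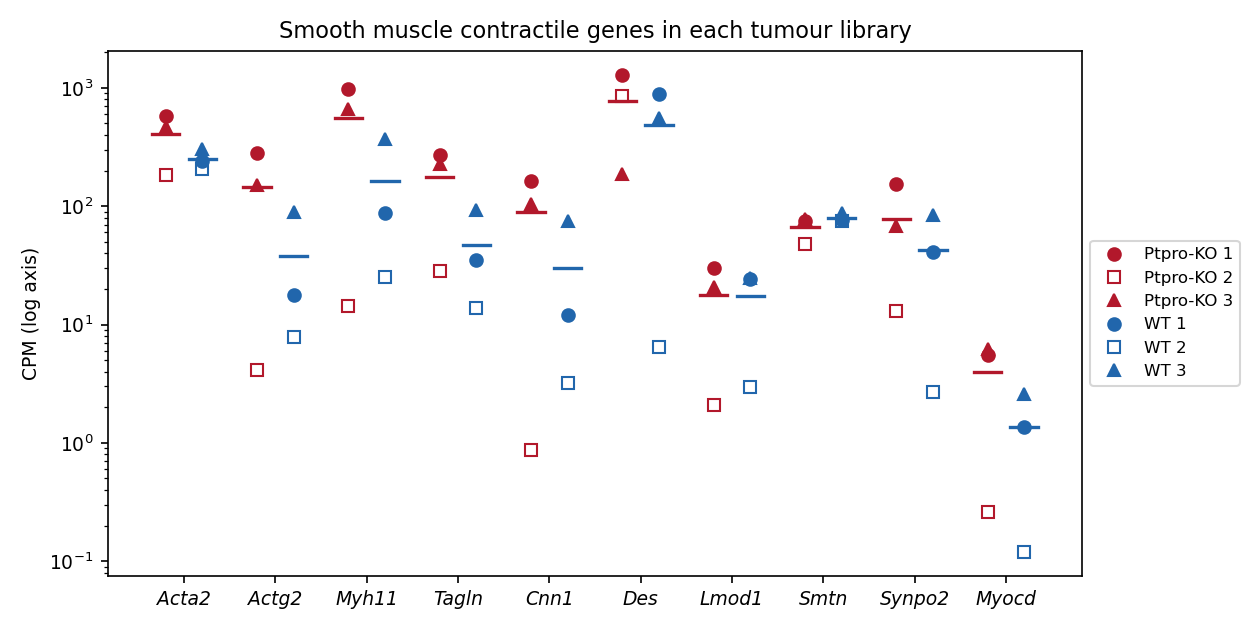
Level of each contractile gene in CPM (log axis) in the 3 libraries labelled Ptpro-KO (red, left) and the 3 labelled WT (blue, right); lines are group means and marker shape gives the replicate, with open squares for replicate 2. The open squares are the 2 lowest points for 8 of the 10 genes, and Smtn lies between 47.5 and 86.9 CPM in all 6 libraries.

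The genes of the contractile motor spanned wide ranges and followed each other from tumour to tumour. Myh11, the smooth muscle myosin heavy chain (chromosome 16, 14194535 to 14291372, minus strand, GRCm38), had 983, 14.2 and 662 CPM in tumours labelled Ptpro-KO, against 87.6, 25.2 and 372 CPM in those labelled WT. Replicates 1 and 3 labelled Ptpro-KO were highest, replicate 3 labelled WT came next and replicate 2 labelled Ptpro-KO was lowest, so the groups overlapped. Replicate 3 labelled Ptpro-KO is the library that also held stomach transcripts. The part of stomach tissue in its levels of Myh11 and the other contractile genes was not tested. The means were 553 ± 494 CPM in tumours labelled Ptpro-KO and 162 ± 185 CPM in those labelled WT (SD, n = 3 each). The log2 fold change was 1.77 with an SE of 1.50 and a 95% interval from -1.88 to 5.43 (edgeR adjusted p = 0.510). It was 3.29 without replicate 3 labelled WT (edgeR adjusted p = 0.401) and 1.04 without replicate 1 labelled Ptpro-KO (edgeR adjusted p = 0.770).

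Actg2, the gamma actin typical of visceral smooth muscle (chromosome 6, 83512905 to 83536265, minus strand), had 283, 4.13 and 152 CPM in tumours labelled Ptpro-KO, against 17.6, 7.89 and 89.5 CPM in those labelled WT. The order of the 6 libraries was that of Myh11. Its log2 fold change was 1.93 (SE 1.47, 95% interval -1.66 to 5.53, edgeR adjusted p = 0.465). Without replicate 3 labelled Ptpro-KO, the library with stomach transcripts, it was 1.90 (edgeR adjusted p = 0.555). In RPKM, a level per transcript length, which allows genes to be compared, the ratio of Actg2 to Myh11 was 1.43, 1.44 and 1.15 in tumours labelled Ptpro-KO, against 0.999, 1.56 and 1.2 in those labelled WT. The ratio thus varied little while Myh11 itself differed 69.1-fold in CPM between its highest and lowest library.

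Cnn1, the calponin of differentiated smooth muscle (chromosome 9, 22099216 to 22109630, plus strand), had 164, 0.868 and 104 CPM in tumours labelled Ptpro-KO, against 12.0, 3.19 and 75.6 CPM in those labelled WT. The order of the libraries was again that of Myh11, and the 189-fold range within the label Ptpro-KO was the widest of the 10 genes. The lowest value rested on 37 reads, against 5912 in replicate 1 of that label. Its log2 fold change was 1.56 (SE 1.70, 95% interval -2.61 to 5.73, edgeR adjusted p = 0.617). Without replicate 3 labelled Ptpro-KO it was 1.44 (edgeR adjusted p = 0.71). Of 13819 genes ranked by the likeness of their profile to Myh11, Actg2 came first and Cnn1 second, with root mean square differences of 0.226 and 0.518 log2 units between profiles centred on their means over the 6 libraries. Tagln ranked 12, Synpo2 19, Lmod1 20, Acta2 175, Smtn 1475 and Des 13378.

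Outside the 10 genes, the 5 profiles nearest to Myh11 among 13811 candidates included those of Myl9, the smooth muscle regulatory light chain, at 0.731, and Mylk, the kinase that phosphorylates it, at 0.760. Myl9 had 207, 12.8 and 143 CPM in tumours labelled Ptpro-KO, against 25.5, 8.09 and 81.3 CPM in those labelled WT. The calcium channel gene Cacna1h and the fatty acid desaturase gene Scd1 followed at 0.953 and 0.965. These 6-point likenesses share libraries and depth, and are descriptions.

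Myocd (chromosome 11, 65176561 to 65269989, minus strand) was scarce and ran with the motor genes. It had 201, 11 and 234 reads in tumours labelled Ptpro-KO and 47, 3 and 73 reads in those labelled WT, or 5.56, 0.258 and 6.17 CPM against 1.36, 0.12 and 2.6 CPM. The 3 libraries highest in Myh11 were also highest in Myocd, and the replicates numbered 2 were lowest. Its log2 fold change was 1.55 (SE 1.30, 95% interval -1.63 to 4.72, edgeR adjusted p = 0.507). It was 1.01 without replicate 2 labelled WT and 2.39 without replicate 3 labelled WT (edgeR adjusted p = 0.706 and 0.490). The related co-activators were steadier: in RPKM, Mkl1 had 13.0, 14.8 and 14.2 in tumours labelled Ptpro-KO, against 10.5, 13.9 and 9.65 in those labelled WT. SRF's own gene, Srf, had 43.6, 44.9 and 54.8 CPM in tumours labelled Ptpro-KO, against 63.8, 50.9 and 50.7 CPM in those labelled WT (edgeR adjusted p = 0.434). Mkl1 and Srf were named after their values were seen.

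**Figure D2:**
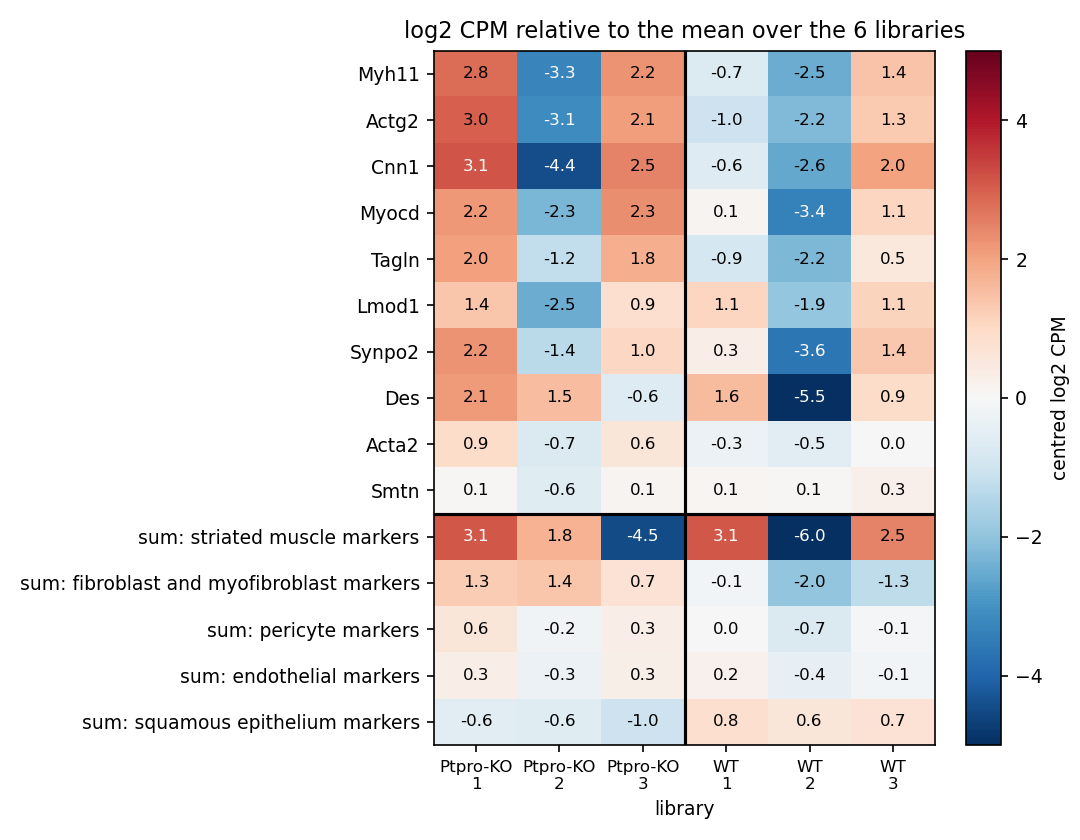
Log2 CPM of each gene minus its mean over the 6 libraries, with the summed CPM of 5 marker lists treated alike below the line; the libraries labelled Ptpro-KO stand left of those labelled WT. Myh11, Actg2, Cnn1, Myocd and Tagln are low in both replicates numbered 2, Des is lowest in replicate 2 labelled WT, and Acta2 and Smtn vary least of the 10.

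Acta2, smooth muscle alpha actin and the usual myofibroblast marker, kept a high level in the tumours nearly without Myh11. It lies on chromosome 19 (34241090 to 34255590, minus strand) and had 574, 184 and 463 CPM in tumours labelled Ptpro-KO, against 242, 206 and 302 CPM in those labelled WT. The order of the libraries was that of Myh11, but the highest was 3.12-fold the lowest, against 69.1-fold for Myh11. Replicate 2 labelled Ptpro-KO lay below all 3 libraries labelled WT, and the other 2 of its label above them. The means were 407 ± 201 CPM in tumours labelled Ptpro-KO and 249.7 ± 48.5 CPM in those labelled WT (SD, n = 3 each), with a log2 fold change of 0.71 (SE 0.42, 95% interval -0.32 to 1.73, edgeR adjusted p = 0.356). It was 1.05 without replicate 2 labelled Ptpro-KO (edgeR adjusted p = 0.0880) and 0.35 without replicate 1 of that label (edgeR adjusted p = 0.693).

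In RPKM, the ratio of Acta2 to Myh11 was 2.17, 48.2 and 2.61 in tumours labelled Ptpro-KO, against 10.3, 30.4 and 3.02 in those labelled WT. It was highest in the 2 libraries with least Myh11 and lowest in the 3 with most. Myh11 is its denominator and ranged far more widely than Acta2, so the ratio of any gene of narrow range would tend to run this way. Summed over 14 fibroblast and myofibroblast markers, the level was 7864, 8538 and 5290.3 CPM in tumours labelled Ptpro-KO, against 2956, 815 and 1332 CPM in those labelled WT. All 14 had positive log2 fold changes (median 1.99). By the edgeR test 3 rose, against 1.81% of all genes tested: the collagen genes Col1a1 and Col1a2 and the matrix glycoprotein gene Tnc. Replicate 2 labelled Ptpro-KO, lowest in Acta2, had the highest fibroblast sum. This rank depends on the scale: the mean log2 CPM of the 14 markers was 7.24 there and 7.28 in replicate 1 of that label. The part of fibroblast content in the Acta2 levels was not tested. Of 9 pericyte markers tested edgeR called 0, with 2 at an unadjusted p under 0.05, against 25% of all genes tested. The pericyte list summed to 451, 265 and 376 CPM in tumours labelled Ptpro-KO, against 306, 184 and 289 CPM in those labelled WT. Endothelial markers summed to 312, 201 and 307 CPM in tumours labelled Ptpro-KO, against 288, 188 and 226 CPM in those labelled WT, with 0 of 8 called by edgeR and 1 at an unadjusted p under 0.05. As with Acta2, both lists were lowest in the replicates numbered 2, and their part in the Acta2 levels was not tested.

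The 5 profiles nearest to Acta2 were those of Fasn, the fatty acid synthase, at 0.158, the kinase gene Tnik at 0.184, Fam46a at 0.199, Itpr1, an intracellular calcium release channel, at 0.202, and Rasgrp2, a Ras-family exchange factor, at 0.203. Fasn had 687, 256 and 688 CPM in tumours labelled Ptpro-KO, against 303, 268 and 500.1 CPM in those labelled WT. Smtn was the nearest of the 10 genes to Acta2, at 0.523. This measure grows with the width of a gene's range, so genes of narrow range can lie close without sharing an order of libraries. Smtn was highest in replicate 3 labelled WT, and Acta2 in replicate 1 labelled Ptpro-KO, with log2 fold changes of -0.25 and 0.71.

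Tagln, transgelin or SM22-alpha, lay between these patterns (chromosome 9, 45929619 to 45936058, minus strand). It had 269, 28.1 and 228 CPM in tumours labelled Ptpro-KO, against 35.1, 13.8 and 92.9 CPM in those labelled WT. Replicate 2 labelled Ptpro-KO lay above replicate 2 labelled WT and below the other 2 labelled WT. The log2 fold change was 1.89 (SE 0.99, 95% interval -0.54 to 4.32), and its edgeR adjusted p of 0.302 was the lowest of the 10. In RPKM, the ratio of Tagln to Myh11 was 1.15, 8.26 and 1.44 in tumours labelled Ptpro-KO, against 1.67, 2.29 and 1.04 in those labelled WT, so replicate 2 labelled Ptpro-KO stood apart. Tagln overlaps Pcsk7 and the antisense gene Gm48529 on the opposite strand, and 53.8% of the 31-base windows of its transcript occur in transcripts of those genes on either strand. The sources used here do not say whether strand was kept, so reads of the overlapping genes may not be told apart. Pcsk7 had 1194, 1423 and 1916 reads in tumours labelled Ptpro-KO, against 1232, 972 and 984 in those labelled WT, a narrower range than the 346 to 9730 reads of Tagln. It had more reads than Tagln in replicate 2 labelled Ptpro-KO (1423 against 1197). The same held for replicates 1 and 2 labelled WT (1232 against 1210 and 972 against 346). The part of such reads in the Tagln levels and in the ratio to Myh11 was not tested.

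**Figure D3:**
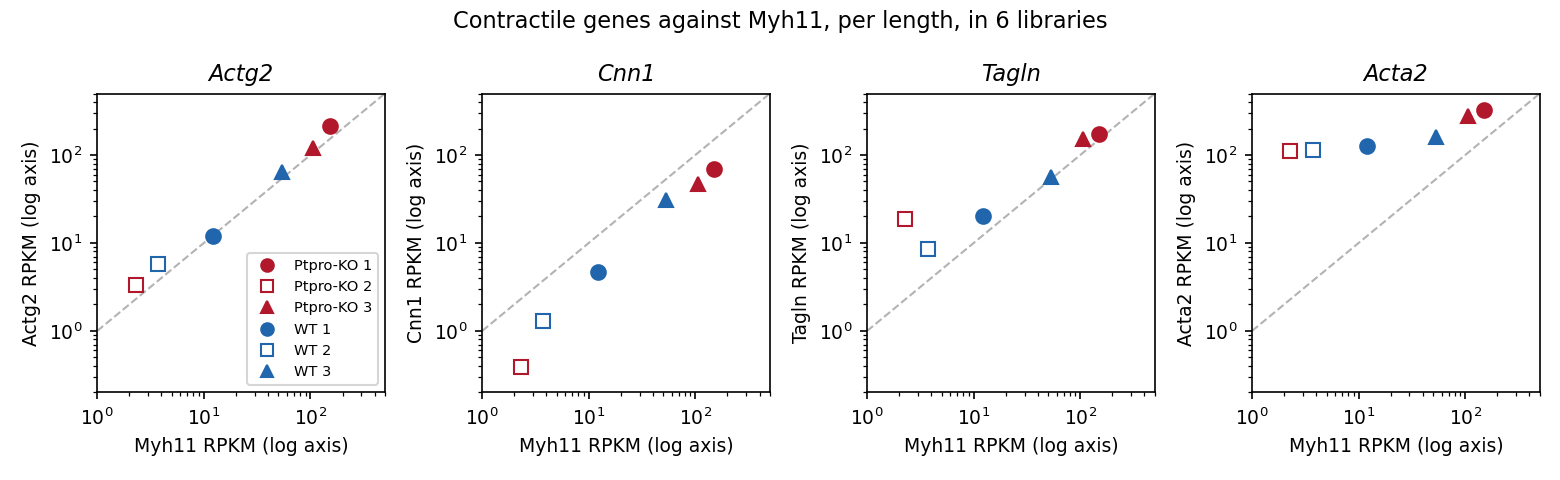
Actg2, Cnn1, Tagln and Acta2 against Myh11, each in RPKM on log axes, 1 point per library (red, labelled Ptpro-KO; blue, labelled WT; open squares, replicate 2); the dashed line marks equal RPKM. Actg2 runs along the line and Cnn1 below it, while Acta2 stays between 111 and 328 RPKM as Myh11 runs between 2.29 and 151 RPKM.

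Promoter letters are shown for Lmod1, which holds the motif CATTCC, and for Des and Synpo2, which do not, as these 3 windows have at most 6 bases in an annotated exon. CATTCC is the MCAT element of muscle promoters, bound by TEAD factors. The windows are the 250 bases before the gene start in RefSeq on GRCm38.p6, written 5′ to 3′ along the gene, with the motif in capitals (GGAATG is CATTCC on the other strand). They are chr1:135324563-135324812 on the plus strand for Lmod1, chr1:75360042-75360291 on the plus strand for Des and chr3:123236150-123236399 on the minus strand for Synpo2.
Lmod1: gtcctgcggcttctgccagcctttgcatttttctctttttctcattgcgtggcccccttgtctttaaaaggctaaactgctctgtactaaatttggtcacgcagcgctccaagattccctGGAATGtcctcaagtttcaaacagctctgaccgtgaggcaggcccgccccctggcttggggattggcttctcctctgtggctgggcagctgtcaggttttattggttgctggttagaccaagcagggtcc
Des: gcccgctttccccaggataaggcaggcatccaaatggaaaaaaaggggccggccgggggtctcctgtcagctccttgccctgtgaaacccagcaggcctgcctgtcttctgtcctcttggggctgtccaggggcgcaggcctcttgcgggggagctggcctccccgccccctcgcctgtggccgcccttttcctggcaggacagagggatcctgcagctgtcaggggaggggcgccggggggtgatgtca
Synpo2: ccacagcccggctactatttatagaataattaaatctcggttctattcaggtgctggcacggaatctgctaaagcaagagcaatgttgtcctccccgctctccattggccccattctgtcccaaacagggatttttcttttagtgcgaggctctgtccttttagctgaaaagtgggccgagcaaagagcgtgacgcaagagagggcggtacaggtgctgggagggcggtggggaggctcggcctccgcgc
The motif starts 130 bases before the start in Lmod1. RefSeq windows were matched for 6 of the 10 genes (Acta2, Cnn1, Des, Lmod1, Smtn and Synpo2). Of these 3 held CATTCC on either strand, Acta2 and Smtn being the others, against 12.6% of 32851 windows of the same length. RefSeq and GENCODE M21, the source of the gene positions given here, place some starts differently: 217 bases of the Acta2 window, 37 of the Cnn1 window, 31 of the Smtn window and 6 of the Lmod1 window lie in exons of the same gene in GENCODE, and the match in Acta2 is among them. The strict CArG box, the SRF motif in which CC and GG flank 6 bases that are each A or T, was in 0 of the 6 windows and in 1.47% of all windows. It reads alike on both strands. The strict pattern passes over near forms. The Acta2 window holds ccctatatgg and the Lmod1 window ctttaaaagg and ctaaatttgg, each 1 base off, and such forms were not counted over all windows. A match describes letters and not a bound site, and no match says only that these letters are not in this window.

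Des and Synpo2 serve striated as well as smooth muscle, and Des followed the striated markers. Des (chromosome 1, 75360329 to 75368579, plus strand) had 1294, 846 and 188 CPM in tumours labelled Ptpro-KO, against 884, 6.42 and 554 CPM in those labelled WT. The 4 libraries with 17875 to 45543 CPM of striated markers were the 4 highest in Des. Its root mean square difference was 1.38 log2 units from Actn2, a Z-line protein of striated muscle, and 2.21 from Ckm, the muscle creatine kinase. Both were chosen after their values were seen. Of the contractile genes, Synpo2 was nearest to Des at 1.66, nearer than Ckm. Myocd, Tagln and Lmod1 lay at 2.24, 2.25 and 2.29, close to Ckm. The others lay between 2.49 and 3.16, with Myh11 at 2.79. The log2 fold change of Des was 0.69 (SE 1.43, 95% interval -2.82 to 4.19, edgeR adjusted p = 0.807). It was 0.10 without replicate 2 labelled WT and 0.07 without replicate 1 labelled Ptpro-KO (edgeR adjusted p = 0.960 and 0.988). The part of striated muscle content in the Des difference was not tested. An antisense gene, Gm15179, overlaps Des and held at most 20 reads in a library.

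Synpo2 (chromosome 3, 123076519 to 123236149, minus strand) had 154, 12.9 and 67.4 CPM in tumours labelled Ptpro-KO, against 41.1, 2.71 and 84.8 CPM in those labelled WT. Replicate 1 labelled Ptpro-KO was highest and the replicates numbered 2 were lowest. Its log2 fold change was 0.87 (SE 1.25, 95% interval -2.20 to 3.93, edgeR adjusted p = 0.713), and it was -0.12 without replicate 1 labelled Ptpro-KO (edgeR adjusted p = 0.973). Its reads were listed mainly under 2 transcripts. Synpo2-202, a transcript of 5 exons, had 1661, 55 and 873 reads in tumours labelled Ptpro-KO, against 116, 27 and 601 in those labelled WT. The share of Synpo2-201, of 2 exons, was 68.4%, 88.2% and 59.1% in tumours labelled Ptpro-KO, against 90.9%, 57.4% and 73.3% in those labelled WT. The share of Synpo2-201 was lowest in the 2 libraries poor in striated muscle and highest in replicate 1 labelled WT and replicate 2 labelled Ptpro-KO, which had much striated muscle and little Myh11. Replicate 2 labelled WT had 68 Synpo2 reads in all, and the sources used here do not say how the authors assigned reads that isoforms share.

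**Figure D4:**
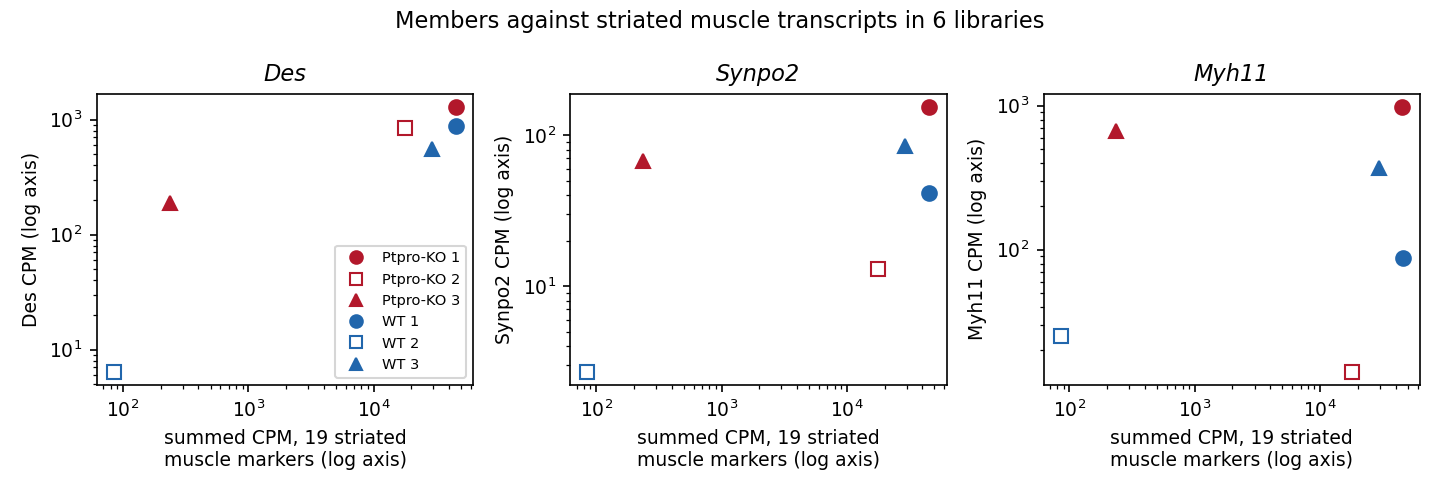
Des, Synpo2 and Myh11 in CPM against the summed CPM of 19 striated muscle markers, log axes, 1 point per library (red, labelled Ptpro-KO; blue, labelled WT; open squares, replicate 2). Des is lowest in the 2 libraries with 85.1 and 237 CPM of striated markers, while Myh11 is high in 1 of these and low in the other.

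Lmod1, which nucleates actin filaments in smooth muscle (chromosome 1, 135324807 to 135368065, plus strand), had 30.0, 2.09 and 20.8 CPM in tumours labelled Ptpro-KO, against 24.3, 2.99 and 24.6 CPM in those labelled WT. Apart from the replicates numbered 2, its libraries lay close together although their Myh11 ran between 87.6 and 983 CPM. The log2 fold change of 0.03 (SE 1.07, 95% interval -2.60 to 2.65, edgeR adjusted p = 0.991) changed sign under 8 of 19 other settings. Its striated muscle paralog Lmod2, named after its values were seen, had 33.1, 14.6 and 0.0567 RPKM in tumours labelled Ptpro-KO, against 17.0, 0 and 11.8 RPKM in those labelled WT.

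Smtn was nearly level (chromosome 11, 3517523 to 3540612, minus strand). It had 74.6, 47.5 and 78.3 CPM in tumours labelled Ptpro-KO, against 76.4, 75.2 and 86.9 CPM in those labelled WT, with a log2 fold change of -0.25 (SE 0.21, 95% interval -0.75 to 0.25, edgeR adjusted p = 0.496). Over the 6 libraries 56.9% of its reads were listed under Smtn-202 and 39.1% under Smtn-201. The scarce Smtn-203 had 28, 0 and 27 reads in tumours labelled Ptpro-KO, against 1, 0 and 14 reads in those labelled WT, so nearly all lay in the 3 libraries richest in Myh11. The opposite-strand gene Gm11946 shares 16.2% of the 31-base windows of Smtn-202 and had 47, 10 and 212 reads in tumours labelled Ptpro-KO, against 5, 8 and 30 reads in those labelled WT.

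Of 24 other smooth muscle contractile and scaffold genes tested, edgeR called 0 and 0 had an unadjusted p under 0.05. Over all genes tested these shares were 4.1% and 25%. Log2 fold changes of the 24 were positive for 18 and negative for 6, with a median of 0.31. The lowest p was that of Tgfb1i1, an adaptor of focal adhesions, at 15.1, 6.47 and 16.7 CPM in tumours labelled Ptpro-KO, against 8.67, 3.39 and 6.41 CPM in those labelled WT (log2 fold change 1.05, SE 0.48, edgeR adjusted p = 0.247). Ppp1r14a, an inhibitor of myosin phosphatase, was high in 1 library, with 14.0, 0.54 and 1.69 CPM in tumours labelled Ptpro-KO, against 0.551, 0.837 and 1.89 CPM in those labelled WT. Mylk and Mrvi1, a partner of cGMP-dependent kinase, had edgeR adjusted p of 0.494 and 0.506.

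Of 17 regulators of the programme tested, 0 were called by edgeR and 6 had an unadjusted p under 0.05, against 25% of all genes tested. Log2 fold changes were positive for 10 and negative for 7, with a median of 0.22. Rock2, a kinase that favours smooth muscle contraction, had 233, 216 and 256 CPM in tumours labelled Ptpro-KO, against 182, 142 and 156 CPM in those labelled WT (log2 fold change 0.55, SE 0.13, edgeR adjusted p = 0.0782). Its groups did not overlap, as for 32.5% of all genes tested. Notch3, a receptor of vascular smooth muscle, had 58.5, 41.5 and 34.9 CPM in tumours labelled Ptpro-KO, against 66.2, 78.9 and 75.9 CPM in those labelled WT (log2 fold change -0.71, SE 0.21, edgeR adjusted p = 0.108). Mkl2, a myocardin relative, and Foxf1, a factor of gut mesenchyme, had log2 fold changes of -0.28 and 1.46 (edgeR adjusted p = 0.121 and 0.174). Gata6 had 4.46, 1.36 and 26.7 CPM in tumours labelled Ptpro-KO, against 0.986, 0.279 and 0.854 CPM in those labelled WT (log2 fold change 3.92, SE 1.21, edgeR adjusted p = 0.122). It was highest in the library with stomach transcripts, and their part in it was not tested. Gata6 had a log2 fold change of 2.02 without that library (edgeR adjusted p = 0.178). As an alternative, DESeq2 called 3 regulators higher, Rock2 and Gata6 among them, and 2 lower, Notch3 and Mkl2. Of all 28479 genes with a p-value from DESeq2, it called 1747 higher and 1425 lower, far more than edgeR. Rock2 was called under 4 of 19 alternatives.

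Among 16 non-muscle paralogs and cytoskeletal counterparts, 1 rose and 0 fell, against 1.81% and 2.29% of all genes tested. Log2 fold changes were positive for 6 and negative for 10, with a median of -0.19. Cnn3, the calponin of non-muscle cells, had 177, 176 and 169 CPM in tumours labelled Ptpro-KO, against 63.8, 84.2 and 69.2 CPM in those labelled WT. The groups did not overlap, and Cnn3 rose by a log2 fold change of 1.26 (SE 0.13, edgeR adjusted p = 0.0138). Leaving out any 1 library other than replicate 3 labelled Ptpro-KO put its adjusted p between 0.0519 and 0.104, with log2 fold changes of 1.18 to 1.38. Tagln2, the transgelin of non-muscle cells, had 190.4, 211 and 345 CPM in tumours labelled Ptpro-KO, against 525, 488 and 332 CPM in those labelled WT (log2 fold change -0.85, SE 0.29, edgeR adjusted p = 0.146), and its groups overlapped; DESeq2 called it and Lmna lower. Lmna, Tpm4 and Lima1, for a nuclear lamin, a tropomyosin and an actin-bundling protein, had log2 fold changes of -0.54, -0.37 and -0.54 (edgeR adjusted p = 0.108, 0.164 and 0.174). Cnn1 and Cnn3, and Tagln and Tagln2, were not tested against each other.

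**Figure D5:**
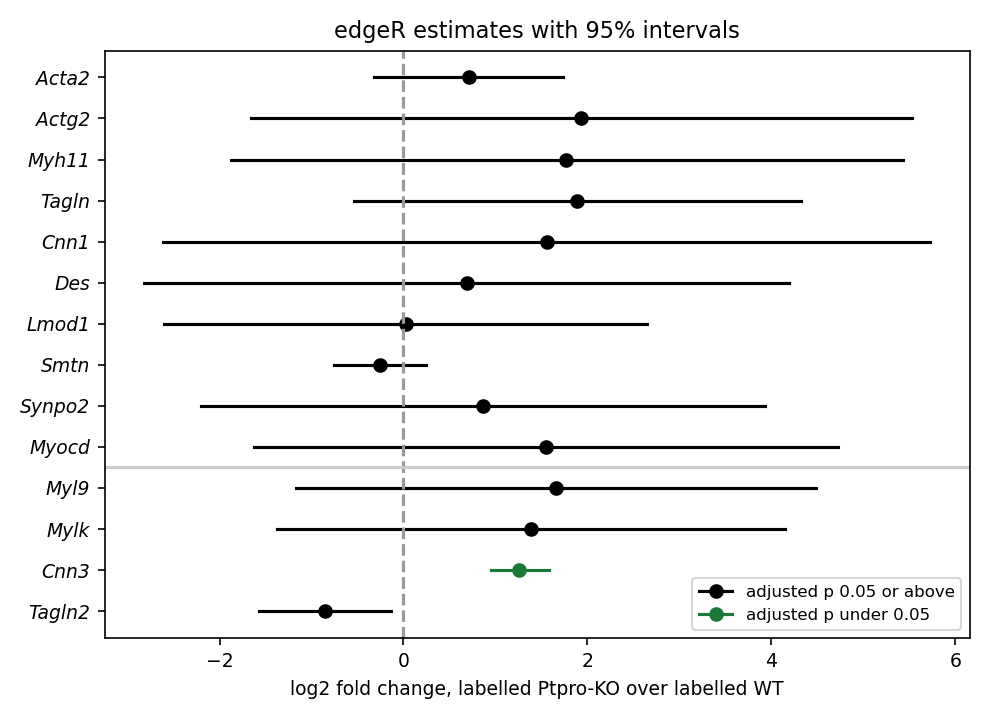
Log2 fold change, libraries labelled Ptpro-KO over those labelled WT, with 95% intervals of the edgeR fit, for the 10 genes and, below the line, Myl9, Mylk, Cnn3 and Tagln2. The intervals of all 10 contractile genes include 0, and Cnn3, at 1.26, is the one gene drawn that passed the adjusted threshold.

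The shares that Acta2, Actg2 and Myh11 took of their families differed between libraries. Of the summed RPKM of the 6 actin genes, Acta2 took 5.07%, 2.45% and 6.55% in tumours labelled Ptpro-KO, against 1.94%, 2.51% and 3.19% in those labelled WT. Actg2 took 3.34%, 0.0735% and 2.88% in tumours labelled Ptpro-KO, against 0.188%, 0.129% and 1.27% in those labelled WT. The cytoplasmic actin Actb took 28.2% to 48.9% in tumours labelled Ptpro-KO and 28.7% to 52.7% in those labelled WT. Of the RPKM of 10 myosin heavy chain genes, Myh11 took 7.61%, 0.285% and 29.0% in tumours labelled Ptpro-KO, against 0.744%, 1.28% and 4.21% in those labelled WT. The 29.0% stood in a library with little striated myosin. Actin genes are close copies, and 1.5% of the 31-base windows of the Acta2 transcript and 1.46% of those of Actg2 occur unchanged in transcripts of other genes. Misplaced reads with mismatches were not tested.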

How the data were processed

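Total RNA of 6 tumours, 3 per label, was sequenced. The labels say no more of the replicates than the design text's 3 mice per group, so p-values measure the spread between these samples. The authors' sample codes begin with LB for replicate 1 of each label and with B for the other libraries. The sources used here do not say what this prefix means. Per the submitters' processing notes, the authors used Bowtie 0.12.2 and mm10. The authors deposited whole read counts per Ensembl transcript with RPKM values, per the file headers, and tables of the whole series with FPKM and with a scaled gene signal that is no longer whole, whose scaling the sources used here do not give. Columns left unused numbered 2 in each series table.

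For each of 41253 gene symbols the counts of its transcripts (100249 in all) were added up; 0 reads lacked a symbol. GENCODE M21 (GRCm38, the assembly of mm10) holds 97.3% of these transcripts and gave the positions. Libraries held 25745240 to 39827467 reads, and pairs of one label differed beyond sampling noise (chi-square per degree of freedom 66.9 to 307). Genes passing filterByExpr (10 counts, 15 in total) were tested across all 6 libraries with edgeR 4.0.16 in R 4.3.3, by TMM scaling, the quasi-likelihood test and Benjamini-Hochberg adjustment at 0.05, as planned for counts. CPM values use TMM-scaled sizes. An exact two-sided permutation test of 3 against 3 cannot go below 0.1. DESeq2 1.42.0, limma 3.58.1, other scalings and filters, and leaving out each library were alternatives. Fits were tested on simulated data.

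The 10 genes and all lists were chosen with earlier results of these data known. Named genes are the 10, the 5 of lowest p in each of 3 lists, the 3 most abundant of each marker list for its summed level, the 5 profiles nearest to Myh11 and to Acta2 (mean log2 CPM of at least 1) and Ptpro; other names were chosen after their values were seen. One profile near Myh11 is not reported here.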

Additional observations from a re-analysis of the deposited data

How the results depend on the processing

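Under all 19 alternatives 0 of the 10 genes were called, and of 190 combinations of gene and setting 181 kept their direction and side of the threshold, 9 reversed, and the lowest adjusted p was 0.088 (Acta2 without replicate 2 labelled Ptpro-KO). Lmod1 reversed to -0.33 with limma-voom, -0.14 with the replicate block, -0.040 and -0.10 with limma on log2 FPKM plus 1 and plus 0.1, and -0.13 on scaled counts, and ran from -0.62 to 0.55 when 1 library was left out. Synpo2 then ran from -0.12 to 1.83 and Myocd from 1.01 to 2.39; with the replicate block Myocd had 1.52 (SE 0.312, adjusted p 0.0881). Myh11 ran from 1.04 to 3.29, Actg2 from 1.01 to 3.51, Cnn1 from 0.77 to 3.54 and Tagln from 1.41 to 2.83, highest without replicate 3 labelled WT. Over all genes, 320 higher and 405 lower became 1747 and 1425 with DESeq2, 630 and 294 with total count sizes, and 133 and 104 with the replicate block, and ranged from 0 to 253 and from 0 to 243 when 1 library was left out. The calls of all genes vanished without replicate 2 labelled Ptpro-KO, replicate 2 labelled WT or replicate 3 labelled WT, where 2412, 1871 and 1584 higher and 1951, 1498 and 1494 lower genes had an unadjusted p under 0.05. Total count sizes moved the median log2 fold change of all genes to 0.185 from 0.0343. DESeq2 called Rock2, Gata6, Lmna, Mkl2, Notch3 and Tagln2 (adjusted p 0.00137 to 0.0383), and Rock2 was also called with total count sizes (0.0432) and with limma on log2 FPKM plus 1 (0.0484) and plus 0.1 (0.0471). Same-numbered libraries deviated from their group means with correlations of 0.539, 0.0803 and -0.243, so the numbers were not taken as pairs. The cause of these shifts was not tested. Depth limits Myocd and Cnn1, read 3 to 234 and 37 to 5912 times.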

Other observations

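Among genes used as markers of interstitial cells of Cajal, the pacemaker cells beside gut smooth muscle, Kit was highest in the library where Myh11 was lowest. Of the other markers, Thbs4 was also highest in that library, replicate 2 labelled Ptpro-KO, at 66.1 CPM. Ano1 and Etv1 were lowest of their label there, at 112 and 2.06 CPM. Kit, the receptor of stem cell factor and also a mast cell gene, had 12.3, 52.2 and 25.9 CPM in tumours labelled Ptpro-KO, against 6.09, 6.85 and 8.22 CPM in those labelled WT (log2 fold change 2.10, SE 0.52, edgeR adjusted p = 0.0828). The chloride channel gene Ano1 had 233, 112 and 197 CPM in tumours labelled Ptpro-KO, against 86.2, 106 and 103 CPM in those labelled WT (log2 fold change 0.87, SE 0.28, edgeR adjusted p = 0.128). The groups did not overlap for either gene, as for 32.5% of all genes tested. Of the 4 markers tested 0 were called, and 3 had an unadjusted p under 0.05, against 25% of all genes tested. Kit and Ano1 are also expressed outside these cells. Macrophage markers summed to 1458, 1045 and 803 CPM in tumours labelled Ptpro-KO, against 503, 102 and 184 CPM in those labelled WT, cardiac muscle markers to 184, 87.9 and 33.9 CPM against 59.4, 22.3 and 73.4 CPM, and enteric neuron and glia markers to 34.8, 15.1 and 16.8 CPM against 40.5, 4.86 and 41.0 CPM. By edgeR 0 genes of these 3 lists were called, and 6 of 7 macrophage markers tested, 0 cardiac and 0 enteric ones had an unadjusted p under 0.05. Over all genes tested 25% had one.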
